A study of Mus musculus with 2 samples.

Results

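Interferons are secreted proteins through which a cell that senses a virus or other microbe warns itself and its neighbours, and the interferon-induced genes are the set that answers. A bound receptor activates JAK kinases, which phosphorylate STAT proteins. STAT proteins and IRF9 then form the complex ISGF3, which binds the interferon-stimulated response element (ISRE) in promoters, whereas the gamma-activated sequence (GAS) is bound above all after interferon gamma. The induced proteins sense viral nucleic acid, block viral replication, present antigen and call in lymphocytes, and in the kidney a raised set of these transcripts is known from viral infection and lupus nephritis. The question here was whether 44 such genes, set as a list of gene symbols from the known roles of the proteins, differed between kidneys with and without *Cnnm2*, which encodes a membrane protein of magnesium transport.

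Whole-kidney RNA of 2-month-old mice was compared on 2 arrays of 2 colours. The knockout mice were Cnnm2fl/fl;Six2-Cre and the control mice were Cnnm2+/+;Six2-Cre, so that both genotypes carried the Cre transgene and differed in the floxed allele, and neither was treated. Six2-Cre recombines in the nephron progenitors of the embryonic kidney, from which the epithelium of the nephron arises, while vessels, stroma, leukocytes and the collecting duct come from other progenitors and also contribute to whole-kidney RNA. In such bulk RNA, fewer cells of a type and less RNA per cell cannot be told apart. The knockout RNA was labelled with Cy5 on array 1 and with Cy3 on array 2, and the control RNA with the other dye. Neither the labels nor the methods give the number of mice or say whether both arrays carry the same RNA, so the pair of arrays was taken to hold 1 replicate per genotype. The genotypes were compared by size and direction without a test, and each SD is the spread of a ratio between the 2 arrays.

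All 44 genes were on the arrays, out of 31821 gene names with a usable spot. Each gene was read from its brightest probe, and each ratio is the log2 of the knockout over the control processed signal. A gene was called measured where the scanner software found its probe well above background in at least 1 genotype, the same one for array 1 and array 2, which held for 41 of the 44 genes and for 19707 gene names in all. Of the 41 genes, 40 were above background in all 4 channels. The exception was *Mx1*, which reached it in both control channels and in 1 of the 2 knockout channels. *Oas1g*, *Oas3* and *Epsti1* were not measured. The 43020 gene spots of an array were well above background in 62.6 to 68.0% of cases per channel, and 0 were saturated. The *Cnnm2* probe itself had log2 ratios of -2.88 and -2.46 on the arrays, a mean of -2.67 (SD 0.30), so the deleted gene went with the labels. All 8 listed markers of kidney epithelium were measured.

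Promoters of the listed genes were searched for both elements. Windows of 300 bases, from 250 before to 50 after the start site, were taken from RefSeq (GRCm38.p6) and matched by symbol for 33 of the 44 genes. The ISRE was searched as GAAANNGAAA on both strands, which reads TTTCNNTTTC on the other strand, and overlapping matches were counted. It was present in 16 of the 33 genes (48.5%), against 1079 of 27025 genes with a window (3.99%). The GAS, searched as TTCNNNGAA, which reads the same on both strands, was present in 8 of the 33 (24.2%), against 9.55% of all genes. These matches describe letters in a window and not occupied sites. The stretches of 160 bases below belong to genes of the list chosen as examples, among them *Oas1g*, which was not measured. They run 5′ to 3′ on the strand of the gene, from -160 to -1 relative to the start site, except that of *Irf8*, which runs from -200 to -41. Capitals mark the ISRE matches and, in *Irf8*, the GAS matches.
Isg15: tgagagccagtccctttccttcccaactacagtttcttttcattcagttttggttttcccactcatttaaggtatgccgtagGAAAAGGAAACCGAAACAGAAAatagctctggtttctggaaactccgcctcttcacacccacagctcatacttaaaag
Ifit1: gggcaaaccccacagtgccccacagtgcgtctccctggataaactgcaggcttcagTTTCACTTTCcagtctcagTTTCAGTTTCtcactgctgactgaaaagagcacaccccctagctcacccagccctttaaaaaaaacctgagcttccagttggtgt
Ifit3: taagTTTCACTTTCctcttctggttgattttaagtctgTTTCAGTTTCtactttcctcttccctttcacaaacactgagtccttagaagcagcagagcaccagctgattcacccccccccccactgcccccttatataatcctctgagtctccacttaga
Oas1a: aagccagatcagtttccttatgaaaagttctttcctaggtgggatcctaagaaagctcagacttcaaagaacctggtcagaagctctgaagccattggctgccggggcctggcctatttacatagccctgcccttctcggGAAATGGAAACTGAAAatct
Oas1g: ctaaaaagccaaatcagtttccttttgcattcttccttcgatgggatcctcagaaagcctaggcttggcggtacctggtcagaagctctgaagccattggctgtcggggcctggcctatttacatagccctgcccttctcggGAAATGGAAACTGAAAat
Irgm1: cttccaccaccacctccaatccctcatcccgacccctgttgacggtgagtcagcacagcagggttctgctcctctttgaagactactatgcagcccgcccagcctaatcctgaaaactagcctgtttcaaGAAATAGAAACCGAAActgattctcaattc
Igtp: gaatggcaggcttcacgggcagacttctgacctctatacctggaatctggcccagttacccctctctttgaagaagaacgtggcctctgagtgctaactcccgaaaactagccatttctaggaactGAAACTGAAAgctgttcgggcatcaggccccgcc
Irf8: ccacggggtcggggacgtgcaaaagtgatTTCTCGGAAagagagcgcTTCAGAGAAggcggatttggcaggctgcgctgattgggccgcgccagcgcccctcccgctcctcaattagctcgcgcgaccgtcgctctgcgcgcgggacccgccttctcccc

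The stretch of *Isg15* (chr4:156200819-156200978, minus strand) held 3 overlapping ISRE matches. Those of *Ifit1* (chr19:34640729-34640888, plus strand) and *Ifit3* (chr19:34583369-34583528, plus strand) each held 2 separate matches in the opposite orientation. In *Oas1a* (chr5:120907526-120907685, minus strand) and *Oas1g* (chr5:120887614-120887773, minus strand), neighbouring copies of the same gene family, 2 overlapping matches lie just before the start site, and after a shift of 2 bases 122 of 158 bases were identical (77.2%). The stretch of *Oas1a* also held 1 GAS match, left in lower case, and that of *Oas1g* held none. The stretch of *Irgm1* (chr11:48871421-48871580, minus strand) held 2 overlapping matches, and that of *Igtp* (chr11:58199396-58199555, plus strand) held 1 ISRE match, with a GAS match before it that is left in lower case. *Irf8* (chr8:120736158-120736317, plus strand) held 2 GAS matches and no ISRE match.

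The mean ratios of the interferon-induced genes were small, while those of single arrays were often larger and of opposite sign. None of the 41 measured genes was higher or lower by a mean of at least 0.5 log2 with the same direction on both arrays, the rule of size used here. Over all genes measured, 1.28% were higher and 1.38% lower by that rule. At a limit of 1 log2, which is 2-fold, the counts were again 0 higher and 0 lower, against 0.315% and 0.284% of all genes. Against shares this low, a count of 0 among 41 genes is no result particular to the list. The median of the mean ratios was -0.04 over the 41 genes and -0.01 over all genes. The means of the 40 genes above background in all channels ran from -0.31 for *Irf8* to 0.20 for *Irf7*, and that of *Mx1*, dim in a knockout channel, was -0.37. A total of 30 of 41 means (73.2%) were within 0.1 of 0, against 52.7% over all genes. The SD of the means was 0.11 over the 41 genes and 0.23 over all genes.

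**Figure D1:**
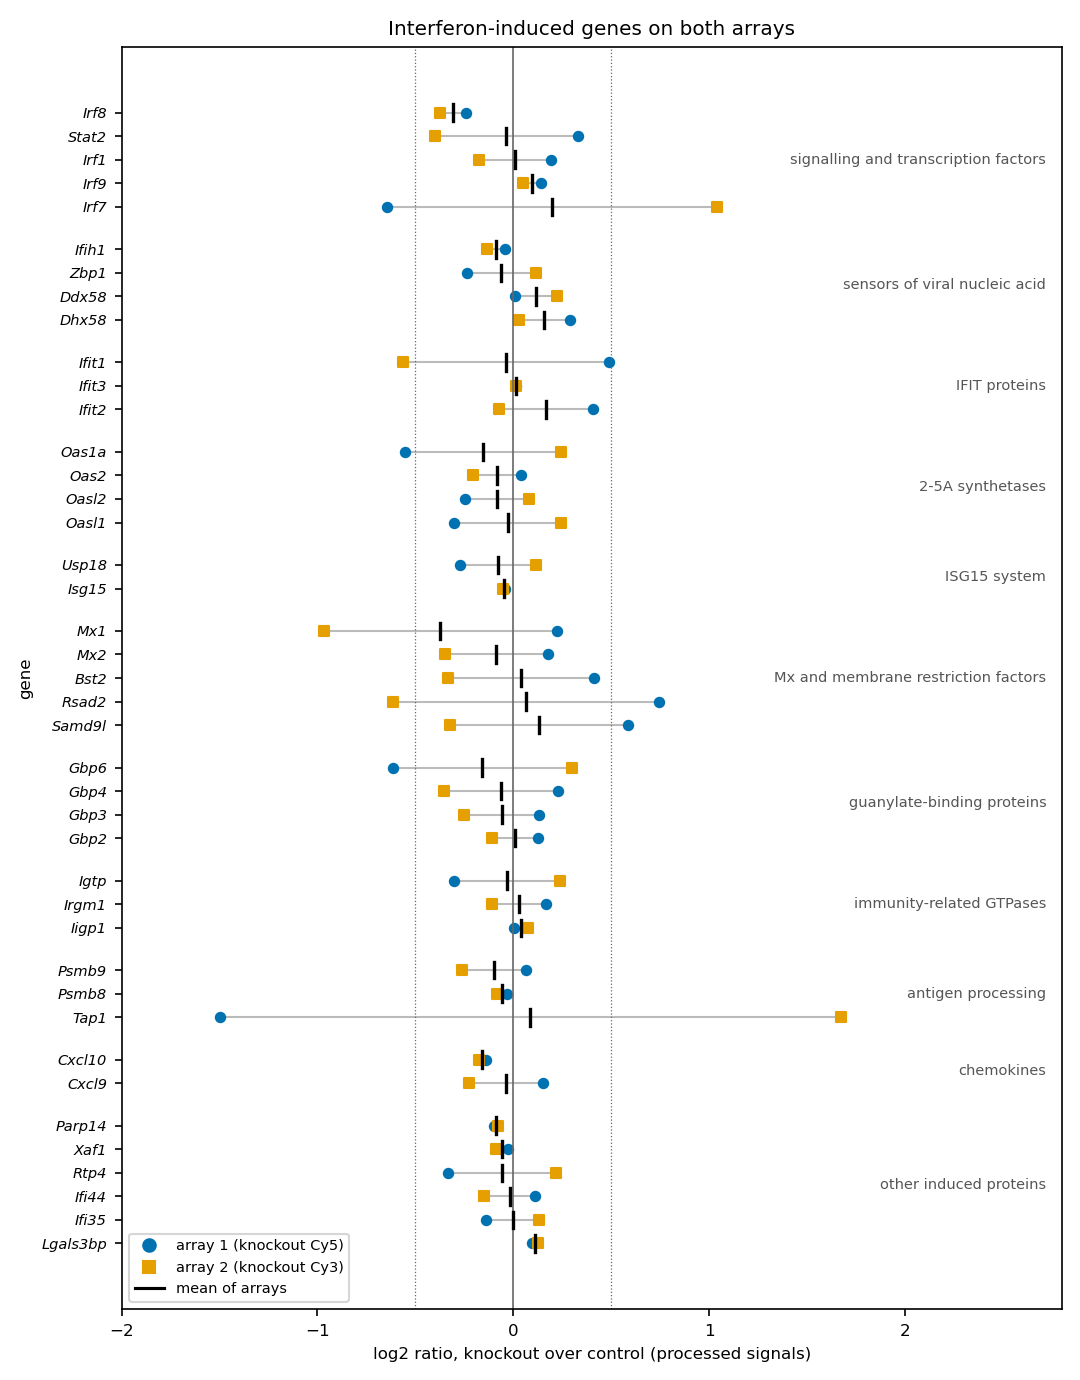
Log2 ratio of knockout over control for each of the 41 measured genes, grouped by role, on array 1 (circles, knockout labelled with Cy5) and array 2 (squares, knockout labelled with Cy3), with the mean as a black tick. Dotted lines mark -0.5 and 0.5. All 41 ticks lie between -0.37 and 0.20, while circles and squares lie on opposite sides of 0 for 28 genes.

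Most of these ratios had opposite directions on the arrays, which differ in the labelling and may differ in the RNA. Of the 41 genes, 13 had one direction on both arrays, with 6 higher and 7 lower in the knockout. Over all genes measured, 27.7% had one direction, of which 12.1% of all genes were higher and 15.6% lower. The share of the 41 genes was thus close to that of all genes. The count was again 13 with no background correction followed by loess, 6 with normexp followed by loess, and 4 with subtracted signals centred on the median, settings that change both the background and the dye normalization. The shares over all genes in these other settings are not given here. The other 28 had opposite ratios, and in 17 of these the ratio was above 0 on array 1, where the knockout RNA carried Cy5, and below 0 on array 2. Over all genes measured, 38.7% had this pattern. Across the 41 genes, the ratios of the arrays had a Pearson's r of -0.84, and across all genes an r of -0.51. Both values are descriptions over genes that share the same 2 arrays. The ratio of array 1 minus that of array 2, divided by 2, in which a genotype effect cancels, had an SD of 0.39 across the 41 genes and 0.40 across all genes. The median of its absolute value was 0.17 across the 41 genes and 0.21 across all genes. Among the 41 genes, *Tap1*, with dim signals, had by far the largest value, -1.59, and it weighs heavily on their SD and r.

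**Figure D2:**
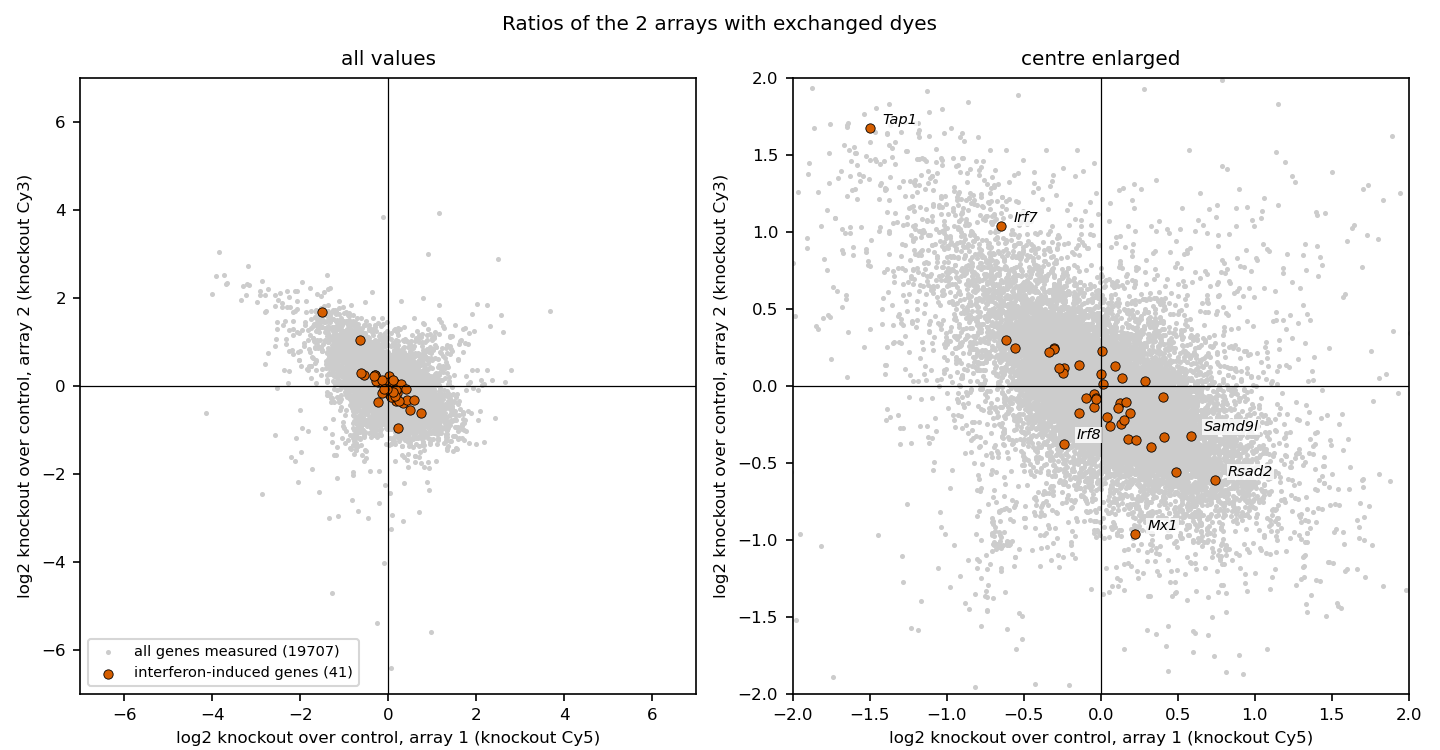
Log2 ratio on array 1 (horizontal axis) against that on array 2 (vertical axis) for the 19707 genes measured (grey) and the 41 interferon-induced genes (orange). The right panel enlarges the centre from -2 to 2. Genes with one direction on both arrays lie at the lower left and upper right, and genes with opposite ratios lie at the upper left, as *Tap1* does, and at the lower right, as *Rsad2* does.

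Transcription factors of the pathway came first in the order of roles. *Irf8*, a factor of myeloid and B cell development that is also induced by interferon gamma, had the largest mean ratio among the 13 genes with one direction. Its probe (mm9, chr8:123280324-123280383) had a signal of 1362 in the knockout and 1608 in the control on array 1, and of 1031 and 1339 on array 2. The knockout channel was the dimmer on both arrays. The ratios were -0.24 and -0.38, with a mean of -0.31 (SD 0.10) and a fold of 0.808. *Irf8* was also the one gene of the list past a limit of 0.25 log2 with one direction, a limit added after seeing the data, with 0 genes higher. Over all genes, 3.88% were higher and 5.01% lower at that limit. *Irf9*, the DNA-binding partner of the STAT proteins in ISGF3, had signals of 1411 and 1280 on array 1 and of 1220 and 1179 on array 2. Its knockout signal was the brighter on both arrays, with a mean ratio of 0.10 (SD 0.06).

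The other 3 factors had opposite ratios on the arrays. *Irf7*, the amplifier of interferon alpha production, had signals of 56.2 in the knockout and 88.0 in the control on array 1 but of 117 and 57.2 on array 2. Its ratios of -0.65 and 1.04 gave the highest mean of the list, 0.20, with an SD of 1.19. *Stat2*, a subunit of ISGF3, had ratios of 0.33 and -0.40, a mean of -0.04. *Irf1*, a factor induced early by interferon gamma, had ratios of 0.19 and -0.18, a mean of 0.01.

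Of the 4 sensors of viral nucleic acid, 3 had one direction, with small ratios. *Ddx58*, which encodes RIG-I, a sensor of RNA ends, had signals of 1263 and 1255 on array 1 and of 1109 and 950 on array 2. Its ratios were 0.01 and 0.22, so that the mean of 0.12 (SD 0.15) came mostly from array 2. *Dhx58*, which encodes the related regulator LGP2, had ratios of 0.29 and 0.03, a mean of 0.16 (SD 0.18). Its signals were dim, at 59.8 and 49.0 on array 1 and 43.7 and 42.9 on array 2. *Ifih1*, which encodes MDA5, a sensor of long double-stranded RNA, had signals of 634 and 652 on array 1 and of 474 and 521 on array 2. The ratios of *Ifih1* were -0.04 and -0.14. *Zbp1*, a sensor of Z-form nucleic acid, had ratios of -0.24 and 0.11.

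The IFIT proteins bind foreign RNA and block its translation, and their genes are among the most inducible by interferon. *Ifit3* (mm9, chr19:34663105-34663164) had signals of 1260 in the knockout and 1247 in the control on array 1, and of 1180 and 1169 on array 2. The 4 values differed less between genotypes than between arrays, and the log2 ratio was 0.01 on both arrays. *Ifit1* had signals of 152 and 109 on array 1 and of 91.3 and 135 on array 2. Here the Cy5 channel was the brighter on both arrays, with ratios of 0.49 and -0.56, a mean of -0.04 (SD 0.74). *Ifit2* had ratios of 0.41 and -0.08, a mean of 0.17 (SD 0.34). *Ifit1* and *Ifit3* thus both had mean ratios within 0.1 of 0, with an SD between arrays far larger in *Ifit1*.

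Oligoadenylate synthetases make the messenger that activates RNase L, which degrades RNA in infected cells. Of the 6 listed, 4 were measured, and all 4 had opposite ratios on the arrays, with means from -0.16 to -0.03. *Oas1a* had signals of 574 in the knockout and 844 in the control on array 1, and of 568 and 480 on array 2, with ratios of -0.55 and 0.24. The accessions of its probe belong to both *Oas1a* and *Oas1g*, and by them the value cannot be assigned to 1 of these copies. A dimmer probe that lists *Oas1a* alone was well above background in all 4 channels and had ratios of -0.12 and -0.07, a mean of -0.09. A probe that lists *Oas1g* alone had signals from 2.01 to 2.22 and was not well above background in any channel. *Oas2* had ratios of 0.04 and -0.21, *Oasl1* of -0.30 and 0.24, and *Oasl2* of -0.24 and 0.08. The probes used for *Oas1g* and *Oas3* were not well above background in any of the 4 channels, with signals from 1.88 to 5.47 and from 2.52 to 7.23. The probe used for *Oas1g* also lists both copies.

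ISG15 is a ubiquitin-like protein that is attached to other proteins after interferon, and USP18 removes it and also restrains the type I receptor. *Isg15* (mm9, chr4:155573649-155573708), whose promoter held the 3 overlapping ISRE matches, had signals of 1331 in the knockout and 1370 in the control on array 1, and of 1072 and 1112 on array 2. Its ratios of -0.04 and -0.05 were nearly the same on both arrays, a mean of -0.05 (SD 0.01) and a fold of 0.968. *Usp18* had ratios of -0.27 and 0.11, a mean of -0.08.

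All 5 genes of the Mx and membrane restriction factors had a ratio above 0 on array 1 and below 0 on array 2, the pattern of 38.7% of all genes. *Rsad2*, which encodes viperin, a protein of the endoplasmic reticulum that blocks viral RNA synthesis, had signals of 1731 in the knockout and 1033 in the control on array 1, and of 996 and 1523 on array 2. The Cy5 channel was thus brighter in both labellings, and ratios of 0.74 and -0.61 gave a mean of 0.07 (SD 0.96). *Samd9l*, an antiviral restriction factor, had signals of 17021 and 11338 on array 1 and of 11063 and 13853 on array 2, with ratios of 0.59 and -0.32, a mean of 0.13 (SD 0.64). *Bst2*, which encodes tetherin and holds budding virions at the membrane, had signals of 2048 and 1539 on array 1 and of 1428 and 1797 on array 2. Its ratios were 0.41 and -0.33, a mean of 0.04.

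The Mx proteins are dynamin-like GTPases that trap viral nucleoproteins. *Mx1* had signals of 27.2 in the knockout and 23.4 in the control on array 1, and of 10.3 and 20.1 on array 2, where the knockout channel was not well above background. The ratio was 0.22 on array 1 and, from that dim channel, -0.97 on array 2. The mean of -0.37 (SD 0.84) therefore carries little, and it was 0.00 with normexp and loess. *Mx2* had ratios of 0.18 and -0.35, a mean of -0.09.

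Guanylate-binding proteins and immunity-related GTPases, induced mainly by interferon gamma, attack the vacuoles in which bacteria and parasites live. The 4 guanylate-binding proteins all had opposite ratios, with means from -0.16 to 0.01. *Gbp2* had ratios of 0.13 and -0.11, *Gbp3* of 0.13 and -0.25, and *Gbp4* of 0.23 and -0.35. The probe named *Gbp6* on the array had ratios of -0.62 and 0.30, and its accessions belong to *Gbp7* in the RefSeq table, so its value is that of the probe and its gene is uncertain. Of the immunity-related GTPases, *Iigp1* had signals of 279 and 278 on array 1 and of 229 and 218 on array 2, nearly equal in all pairs, with a mean ratio of 0.04 (SD 0.05). *Igtp* had ratios of -0.30 and 0.24, and *Irgm1*, a regulator of the other GTPases, of 0.16 and -0.11.

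Antigen processing held both a steady and the most unsteady gene of the list. *Psmb8*, a subunit of the immunoproteasome that cuts peptides for presentation, had signals of 946 and 968 on array 1 and of 824 and 873 on array 2, with ratios of -0.03 and -0.08. *Psmb9*, another such subunit, had ratios of 0.06 and -0.26. *Tap1* (mm9, chr17:34330854-34330913), a subunit of the transporter that carries peptides into the endoplasmic reticulum, had signals of 21.4 in the knockout and 60.6 in the control on array 1, and of 63.8 and 20.1 on array 2. The ratio of *Tap1* was -1.50 on array 1 and 1.67 on array 2, so that the Cy3 channel was the brighter by more than 2-fold whichever genotype it held. The mean was 0.09 with an SD of 2.24.

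*Tap1* and *Igtp* were each printed at 10 spots, which allows the spread between spots to be set beside that between arrays. On array 1, the SD between spots was 0.16 for *Tap1* and 0.04 for *Igtp*. On array 2, it was 0.15 over the 9 spots of *Tap1* that were kept and 0.03 over the 10 of *Igtp*. For both genes the ratios of the arrays lay on opposite sides of 0, at a distance far larger than the SD between spots. Spots of a probe repeat the printing, not the RNA.

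*Cxcl10*, a chemokine that draws activated T cells, had signals of 617 in the knockout and 681 in the control on array 1, and of 537 and 607 on array 2. The knockout channel was slightly dimmer on both arrays, with ratios of -0.14 and -0.18, a mean of -0.16 (SD 0.03) and a fold of 0.896. *Cxcl9*, which binds the same receptor, had ratios of 0.15 and -0.23, a mean of -0.04. Among the remaining induced genes, *Lgals3bp*, which encodes a secreted glycoprotein, had signals of 5648 and 5288 on array 1 and of 5401 and 4944 on array 2, with ratios of 0.09 and 0.13. *Parp14*, an ADP-ribosyltransferase, had signals of 777 and 831 on array 1 and of 619 and 653 on array 2, with ratios of -0.10 and -0.08. *Xaf1*, a pro-apoptotic protein, had signals of 269 and 275 on array 1 and of 217 and 230 on array 2, with ratios of -0.03 and -0.09. The knockout channel was slightly dimmer on both arrays for both genes.

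The last 4 genes carry less. *Ifi44* had ratios of 0.11 and -0.15, *Ifi35* of -0.14 and 0.13, and *Rtp4*, a chaperone-like transmembrane protein, of -0.33 and 0.22. *Epsti1* was above background in the control on array 1 alone, with signals of 6.74 and 21.3 on array 1 and of 8.99 and 3.36 on array 2, and gave no usable ratio.

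Different probes of a gene were then compared. Of the 44 genes, 14 had a second probe on the arrays, and in 10 both probes were well above background. The median distance between the mean ratios of such a pair was 0.07, and the median distance between their halved array differences was 0.32. In 3 pairs the halved array difference had opposite signs. The brighter *Irgm1* probe had ratios of 0.16 and -0.11, whereas the other had -0.36 and 0.47, yet the means were 0.03 and 0.06. Likewise the brighter probe of *Lgals3bp* had ratios of 0.09 and 0.13 and the other had -0.42 and 0.51, with means of 0.11 and 0.04. The mean had opposite signs in 3 pairs, at -0.04 and 0.33 in *Cxcl9*, 0.12 and -0.02 in *Ddx58*, and -0.06 and 0.11 in *Zbp1*. The one direction of *Ddx58*, *Iigp1*, *Isg15*, *Lgals3bp* and *Xaf1* therefore held for the probe used and not for the other, whose ratios were opposite on the arrays. In *Ddx58* the other probe had ratios of 0.72 and -0.75. The other probes were dimmer, so the probes of a pair are not equal measurements. Their signals ran from 49.0 to 91.6 in *Ddx58*, 43.0 to 66.6 in *Iigp1*, 48.8 to 70.1 in *Isg15* and 14.1 to 20.8 in *Xaf1*. In *Lgals3bp* they ran from 1851 to 2630.

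**Figure D3:**
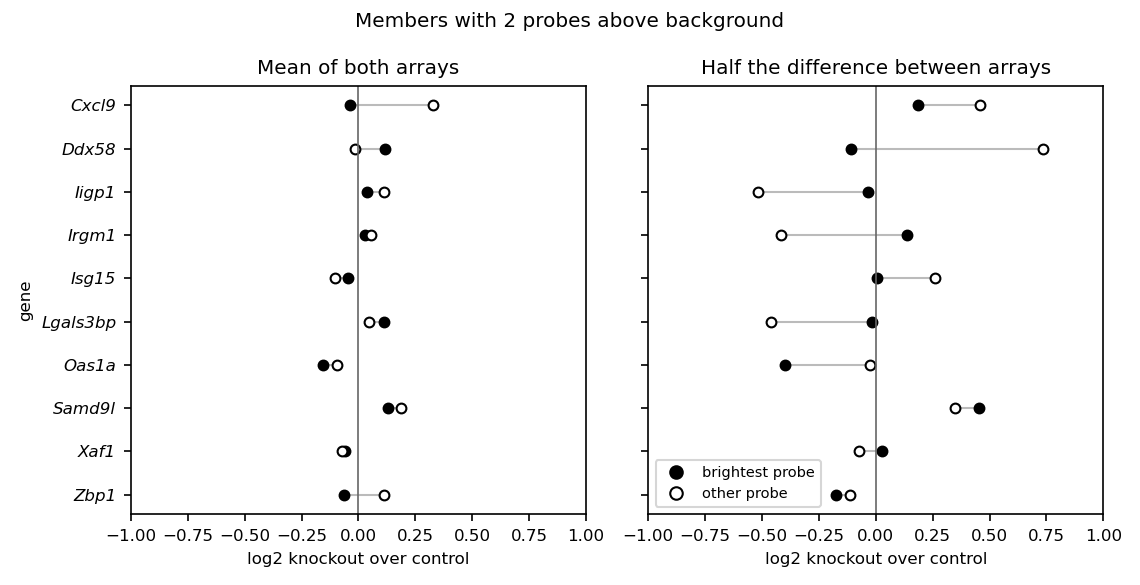
The 10 genes with 2 probes well above background, with the brightest probe (filled) and the other probe (open). The left panel shows the mean log2 ratio of both arrays, where the pairs lie a median of 0.07 apart, and the right panel shows array 1 minus array 2 divided by 2, where they lie a median of 0.32 apart.

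Genes with and without a match in the promoter were set side by side. The 14 measured genes of the list with an ISRE match had a median mean ratio of -0.03, from -0.16 to 0.12, and the 16 with a window but no match had a median of -0.01, from -0.31 to 0.20. Beyond the list, 385 measured genes had an ISRE match, and 7 of them (1.82%) were past 0.5 log2 with one direction in either sense, against 214 of 10050 genes (2.13%) without a match. The median was -0.01 in both of these larger groups.

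The rest of the pathway was read from a further list of 131 genes, of which 112 were on the arrays and 101 were measured. None was higher or lower by 0.5 log2 with one direction, and the median was -0.03. A total of 25 genes had one direction, 8 higher and 17 lower, against 12.1% higher and 15.6% lower over all genes. Of 11 interferon genes on the arrays, 6 were measured, with means from -0.26 to 0.14. Only 4 of the 6 were above background in both genotypes. Apart from *Il28b*, the measured ones were dim, with signals from 13.2 to 27.5, so their means carry little. The lowest mean was that of *Ifna1*, with ratios of 0.45 and -0.98 and 1 knockout channel well above background. The receptors were all measured, with means from -0.18 for *Ifngr1*, a chain of the interferon gamma receptor, to 0.09. *Ifnar1* and *Ifnar2*, the chains of the type I receptor, had means of -0.07 and 0.08. All 8 genes of the kinases, STAT proteins and feedback inhibitors had opposite ratios on the arrays, among them *Tyk2*, a kinase of the type I receptor, with -0.78 and 0.88.

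Among the 101 measured genes of this further list, the limit of 0.25 log2 added after seeing the data was passed by 4, 2 higher and 2 lower. Over all genes, 3.88% were higher and 5.01% lower at that limit, so the count is no result particular to the list. *Tgtp2*, an immunity-related GTPase, came closest to 0.5. Its signals were 2996 in the knockout and 2244 in the control on array 1, and 2397 and 1616 on array 2, the knockout being the brighter on both, with ratios of 0.42 and 0.57 and a mean of 0.49 (SD 0.11). *Irf5*, a factor that drives interferon and cytokine genes, had ratios of 0.66 and 0.13, a mean of 0.39 (SD 0.38). *Ifitm1*, an antiviral membrane protein, had ratios of -0.39 and -0.16, and *Apol9b* had ratios of -0.30 and -0.29. These 4 were picked out by size after their values were seen.

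**Figure D4:**
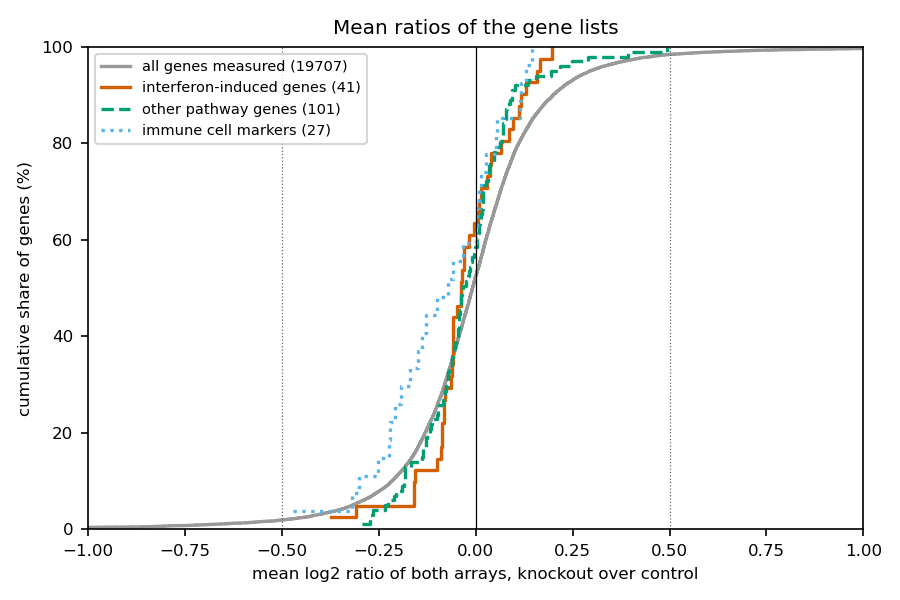
Cumulative share of genes (percent) by mean log2 ratio of both arrays, for all genes measured, the interferon-induced genes, the other pathway genes and the immune cell markers, with dotted lines at -0.5 and 0.5. The axis ends at -1 and 1, beyond which only genes of the full set lie. The curve of the 41 interferon-induced genes ends at 0.20 and that of the 101 pathway genes at 0.49.

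Leukocytes express many of these genes, and their markers were read beside them. Of 34 listed immune cell markers, 30 were on the arrays and 27 were measured, with a median of -0.07. Of these, 10 had one direction, 1 higher and 9 lower, and 0 passed 0.5 log2. Over all genes measured, 12.1% were higher and 15.6% lower on both arrays. On array 1 the measured markers summed to a signal of 42726 for knockout and 46359 for control RNA, and on array 2 to 34167 and 32339. The order of the genotypes in the sums thus differed between the arrays, but the sums largely follow the brightest probes. *Siglech* had signals of 20556 in the knockout and 22067 in the control on array 1, and of 14521 and 13496 on array 2. *Csf1r* had signals of 7760 and 8815 on array 1, and of 7085 and 6202 on array 2. In the same list of macrophage and dendritic cell markers, *Cd68* had signals from only 14.1 to 15.6. Whether each probe reads its cell type was not tested. *Cd3g*, a chain of the T cell receptor complex, had ratios of -0.60 and -0.34, *Ms4a1*, a marker of B cells, had a mean of -0.25, and *Cd53*, found on leukocytes in general, had a mean of -0.30. Each of these was lower on both arrays. Other markers of the same cells had means above 0. Among them, *Cd79b*, with a mean of 0.12, was higher on both arrays, with ratios of 0.18 and 0.05. The ratios were opposite on the arrays for *Cd3e* (-0.13 and 0.38, mean 0.13), *Cd8a* (0.58 and -0.29, mean 0.14) and *Laptm5* (0.84 and -0.61, mean 0.12). The median over the 6 measured T and natural killer cell markers was 0.03. The 4 measured B and plasma cell markers had a median of -0.23, and *Irf8*, which B cells and macrophages express, had its mean of -0.31 beside these. The 12 macrophage and dendritic cell markers had a median of -0.07. The median was -0.13 over the 6 markers of endothelium and 0.03 over the 8 of kidney epithelium. The part of leukocytes in the ratio of *Irf8* was not tested.

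Tests across the arrays were run as alternatives. In the methods' t-test over the arrays, with its threshold of 0.1 and a mean change of at least 2-fold, 0 genes of the list passed, against 0.183% of all genes. Without the limit on size, 5 of the 41 genes passed 0.1, against 4.99% of all genes, and 1 passed 0.05, against 2.47% of all genes. The 5 genes were *Cxcl10*, *Lgals3bp*, *Parp14*, *Isg15* and *Ifit3*, and the 1 was *Ifit3*, whose mean ratio was 0.01. No gene passed with the 2-fold limit after Benjamini-Hochberg adjustment. In limma, 0% of all genes passed an adjusted threshold of 0.05, and an unadjusted p under 0.05 was reached by 0 genes of the list and 256 genes in all. Both tests take the arrays as replicates, which the labels do not establish, and a p that misses a threshold does not show that knockout and control were equal.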

How the data were processed

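Kidney RNA of knockout and control mice was hybridized on 2 two-colour Agilent arrays with exchanged dyes. The authors deposited scanner output with the signal intensity of each spot before and after background subtraction, a processed intensity corrected by the software for background and dye, and a log10 ratio of the red to the green channel. The software was Feature Extraction 10.7.3.1 in the file headers and 10.5.1.1 in the submitters' processing notes. The deposited matrix of log10 ratios differed from the scanner's ratios by at most 0.00492 (array 1) and 0.00483 (array 2, sign turned). Probe positions are on mm9.

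Spots of controls were left out, as were gene spots that the software marked as outliers or non-uniform (141 on array 1, 175 on array 2). The spots of a probe were averaged on the log2 scale computed from the deposited processed signals, and the brightest of several probes stood for a gene (39416 probes, 31821 names). Ratios were turned to knockout over control by the dye labels. The number of arrays limits the precision.

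A gene was counted as higher or lower by size, as stated with each count, where both arrays gave one direction. These counts rest on no test, since each genotype was taken to have 1 replicate. The methods' paired test and limma 3.58.1 (lmFit and eBayes, Benjamini-Hochberg adjustment) were alternatives, beside other background corrections, filters and probe rules and each array alone. Every member was named by role. Signals of all channels were to be given for members past 0.5 log2. There were none, and they are given for those with one direction and for some others, chosen after the values were seen. Members and gene lists were chosen with earlier results of these data known. Gene names of accessions and promoter windows came from RefSeq (GRCm38.p6), with no coordinates carried between builds, and 11 genes had no window. The code was tested on simulated data, in which the difference between the arrays was made much smaller than in these data. That test does not show how the rules fare at the real difference. Computations used R 4.3.3 and Python 3.11.15, with the packages matplotlib 3.10.9, scipy 1.17.1, pandas 2.3.3 and numpy 2.4.6. Some genes of the lists are not reported here by name.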

Additional observations from a re-analysis of the deposited data

How the results depend on the processing

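The count of 0 interferon-induced genes past 0.5 log2 held with each other background correction, filter and probe rule tried on both arrays. All 41 measured genes stayed under 0.5 in 4 background settings, and 29 kept the sign of their mean. The genes with one direction on both arrays, 13 with processed signals, numbered 6 with normexp (offset of 50) and loess and 4 with background-subtracted signals (floor of 1). The shares over all genes in these other settings are not given here. For the probe used, 3 genes (*Irf8*, *Ddx58* and *Iigp1*) had one direction in all 4 settings. The other, dimmer probes of *Ddx58* and *Iigp1* had opposite ratios on the arrays with processed signals. The mean of *Irf8* ran from -0.31 to -0.24 in these settings, and that of *Mx1* from -0.37 to 0.00. Pathway genes higher by 0.5 log2 numbered 1 with background-subtracted signals (*Tgtp2*, at 0.50) and 1 with no limit on dim probes (*Ifi27l2b*, at 0.85, not well above background in any channel). At the limit of 0.25 log2, added after seeing the data, 1 interferon-induced gene was lower, against 5.01% of all genes. The cause of these shifts was not tested.

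On a single array, 2 genes of the list were higher by 0.5 log2 on each and 3 to 5 were lower. Over all genes, 16.5% were higher and 10.2% lower on array 1, and 7.96% and 13.5% on array 2. At 1 log2 the counts were 0 to 2 higher and 0 to 2 lower. The share of all genes past 1 log2 on a single array is not given here, so nothing is read from these counts. Pathway genes past 0.5 log2 numbered 4 to 11 higher and 6 to 10 lower. *Irf7*, *Rsad2* and *Tap1* passed 0.5 on each array in opposite directions. The median of the list was between -0.04 and 0.01 in all settings with both arrays, and was -0.08 on array 2 alone and 0.01 on array 1 alone. Of the single-gene ratios recomputed with both arrays, 13 moved by more than the SD of the arrays and 355 did not. The ratios of *Mx1* and *Tap1* rest on dim signals.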
